A study of Mus musculus with 22 samples.

Results

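Major urinary proteins (Mup) were followed in mouse liver through every probe whose RefSeq accession, or otherwise its gene name, led to a symbol of Mup followed by a number. The rule found 3 of the 33767 gene names on the array, read by 3 of its 41174 probes, 1 each for Mup1 (A_51_P461703), Mup4 (A_51_P266883) and Mup5 (A_52_P412506). No probe was found by the rule for Mup2 or Mup3, which are not analysed here. All 3 probes were among the 32493 that were tested.

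The RNA came from livers of ICR mice aged 8 weeks and was pooled, with 2 to 5 mice in a pool. In each sex there were mice that had lost the pituitary in adulthood (Hypox), Hypox mice killed 30 min after 1 injection of growth hormone (GH30), 90 min after 1 injection (GH90) or 30 min after the second of 2 injections given 4 h apart (2GH), and intact mice with sham surgery and vehicle (sham). The labels call the intact mice untreated, and the series design calls them sham-operated. The 22 arrays made 11 comparisons, with both groups of a comparison hybridised to the same array and a second array to swap the dyes. A pool could recur on several arrays, so the errors below measure the spread between hybridisations more than the spread between mice.

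Major urinary proteins are small secreted lipocalins, barrel-shaped carriers that mouse liver releases into the blood and the kidney passes into urine, where they hold volatile scent molecules. Their genes lie side by side as a large family, many of them nearly identical copies. Adult male livers make more of them than female livers, and pulses of growth hormone acting through the transcription factor STAT5 are known to maintain that output, together with androgen, thyroid hormone and glucocorticoid. The pituitary drives all of these, so its removal withdraws several signals at the same time.

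The RefSeq gene table lists 22 protein-coding Mup genes with a number, all on chromosome 4. Mup1 belongs to the group of nearly identical genes in the middle of the cluster, while Mup4 and Mup5 are more diverged members that are also known from nasal, lachrymal and salivary glands. Probe sequences were not used here, and how far each probe also binds transcripts of its relatives was not tested. A ratio below is therefore the ratio of whatever the probe bound, and the 3 probes may share targets.

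Promoters in the RefSeq table (build GRCm38.p6) run from 250 bases before to 50 bases after each gene's start. Of the 3 measured genes, Mup4 had one there. The 90 bases that end in the TATA box of Mup4 are shown beside those of Mup2 and Mup3, to let the reader see how alike the sequence up to this box is within the family. The stretches were placed by the box and not by the gene's start, so its bases match by construction in the identities below. They end 22 bases before the start in Mup4, 20 in Mup2 and 4 in Mup3. All of them lie on the minus strand and are written 5′ to 3′, with the motif TATATAA in capitals. The Mup4 stretch is chr4:59960690-59960779, that of Mup2 is chr4:60139877-60139966 and that of Mup3 is chr4:62087322-62087411.
Mup4: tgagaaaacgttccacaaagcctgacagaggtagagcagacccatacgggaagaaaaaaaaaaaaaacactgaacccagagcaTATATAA
Mup2: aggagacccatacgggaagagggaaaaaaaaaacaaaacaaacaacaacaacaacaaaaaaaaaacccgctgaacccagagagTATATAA
Mup3: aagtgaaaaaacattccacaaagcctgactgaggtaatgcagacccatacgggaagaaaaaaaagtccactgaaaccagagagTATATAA
In a global alignment of these stretches, Mup3 was identical to Mup4 at 81.72% of aligned positions and Mup2 at 62%. Over the 12 Mup genes whose stretch was compared with that of Mup4, identity ran from 48.74% in Mup15 and Mup19 to 89.13% in Mup6. Over the whole promoters of 300 bases, the longest run shared with Mup4 was 55 bases in Mup6, 41 bases in Mup3 and 21 bases in Mup2. TATATAA, searched on both strands, occurred in 13 of 14 Mup promoters in the table and in 3.242% of all 32851 promoters. TTCNNNGAA, the form of site that STAT5 is known to bind, searched on both strands, occurred in 0 of the 14 Mup promoters and in 8.298% of all promoters, which says only that these letters are not in this window.

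All 66 member spots, 3 probes on each of 22 arrays, were well above background in both channels, and 0 were saturated. The mean signal ran from 1418 to 484856 for Mup1, from 4187 to 407053 for Mup4 and from 2115 to 284527 for Mup5, while the lowest saturation value of the scanner was 609008. The share of all spots well above background ran from 57.1% to 77.7% over the channels. The number of arrays limits the precision. The residual SD of the 3 probes between arrays (0.91, 0.73 and 0.68 on the log2 scale for Mup1, Mup4 and Mup5) lay at the 99.3, 98.8 and 98.6 percentiles of all tested probes. All 9 hepatocyte markers on the array passed the test filter, which asks for signal well above background, and their median log2 ratio lay between -0.53 and 0.55 on every array. Skeletal muscle markers, which liver should lack, had a median ratio of more than 1 in size on 6 arrays without a sham pool and on 4 arrays with one.

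All 3 probes were lower in males that had lost the pituitary. Mup1 had mean signals of 1418 and 13846 in Hypox males on the replicate 1 and 2 arrays, against 484856 and 295720 in sham males. Mup5 had signals of 2205 and 17514 in Hypox males, against 261253 and 143713 in sham males. Mup4 had signals of 10926 and 91741 in Hypox males, against 407053 and 191580 in sham males. Hypox was the dimmer channel for each probe on both arrays, and its signal was brighter on the array where Hypox RNA was read in red. After normalization Mup1 had log2 ratios of -7.82 and -6.26, which gave a fitted ratio of -7.04 ± 0.57 (SE, n = 2 arrays; 132-fold lower; limma, adjusted p = 1.46e-06). Mup5 had log2 ratios of -6.21 and -4.84, with a fitted ratio of -5.53 ± 0.43 (46.1-fold lower; adjusted p = 1.05e-06). Mup4 had log2 ratios of -4.37 and -2.99, with a fitted ratio of -3.68 ± 0.46 (12.8-fold lower; adjusted p = 4.89e-05). All 3 members were called lower, which took an adjusted p under 0.05 and the same direction on both arrays. Of all tested probes 19.5% were called lower in this comparison and 37.6% in either direction. Counted from the lowest of 32493 ratios, Mup1 ranked 3, Mup5 ranked 6 and Mup4 ranked 47. In these bulk samples, fewer cells of a type and less RNA per cell cannot be told apart.

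The same order held in females. Mup1 had signals of 1947 and 19754 in Hypox females, against 446707 and 367026 in sham females. Mup5 had signals of 2696 and 16728 in Hypox females, against 284527 and 179337 in sham females. Mup4 had signals of 8384 and 78654 in Hypox females, against 350581 and 246254 in sham females. No Hypox signal reached a sham signal of the same probe on either array. The log2 ratios of Mup1 were -6.88 and -5.71 (fitted -6.30 ± 0.57; 78.7-fold lower; adjusted p = 7.90e-06). Those of Mup5 were -5.72 and -4.86 (fitted -5.29 ± 0.43; 39.2-fold lower; adjusted p = 3.28e-06). Those of Mup4 were -4.22 and -3.20 (fitted -3.71 ± 0.46; 13.1-fold lower; adjusted p = 8.09e-05). All 3 members were called lower, against 17.2% of all tested probes lower and 31.6% in either direction, and their ranks from the lowest ratio were 7 for Mup1, 10 for Mup5 and 30 for Mup4.

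**Figure D1:**
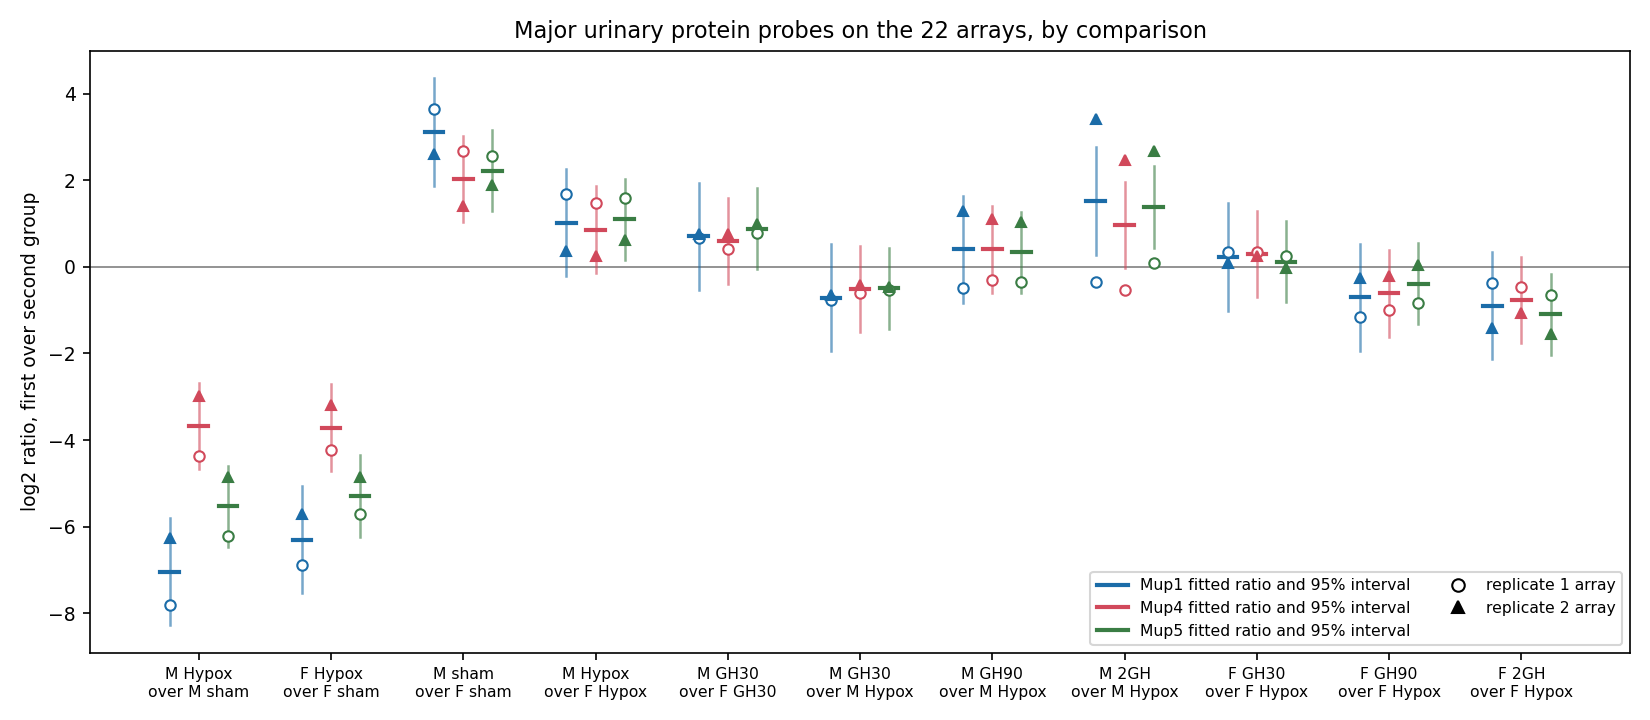
Log2 ratio of the first over the second group (vertical axis) for Mup1, Mup4 and Mup5 in the 11 comparisons (horizontal axis). Open circles are replicate 1 arrays, filled triangles replicate 2 arrays, thick bars the fitted ratio and thin lines its 95% interval. The Hypox over sham ratios lie between -7.82 and -2.99 on every array, and those of M 2GH over M Hypox are split between the arrays.

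The fall after removal of the pituitary was not called different between the sexes for any of the 3 probes. The difference of the male minus the female log2 ratio was -0.74 for Mup1 (95% interval -2.50 to 1.01; adjusted p = 0.660), 0.03 for Mup4 (-1.38 to 1.44; adjusted p = 0.988) and -0.23 for Mup5 (-1.56 to 1.09; adjusted p = 0.875). Over all probes 6.7% were called different, and 0 members had an unadjusted p under 0.05. The intervals allow differences of over 2-fold in either direction for Mup1, Mup4 and Mup5. Male and female Hypox over sham arrays lay on different slides and were scanned on different days, so sex cannot be told apart from slide and scan day here.

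Markers of other tissues moved with part of these ratios. Among the male Hypox over sham arrays the median of 11 skeletal muscle markers was -2.50 and -2.90 on the replicate 1 and 2 arrays. Of the 11, 8 were called lower, against 19.5% of all probes. On the female arrays the same median was 0.07 and 0.02, where Mup1, Mup4 and Mup5 had their fitted ratios of -6.30, -3.71 and -5.29. Lymphocyte markers (6 tested) were higher in the Hypox pools, with medians of 0.72 and 0.55 in males (5 called higher) and 0.27 and 0.38 in females (4 called higher). Of all probes 37.6% were called in either direction in males and 31.6% in females. The part of lymphocyte markers in the result was not tested.

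The normalised ratios of sham males over sham females were above 0 for all 3 probes. Mup1 had signals of 431719 and 188212 in sham males, against 15654 and 102431 in sham females, and log2 ratios of 3.64 and 2.60. Its fitted ratio was 3.12 ± 0.57 (8.70-fold higher in males; adjusted p = 0.00390). Mup5 had signals of 212246 and 94835 in sham males, against 16535 and 81530 in sham females, and log2 ratios of 2.56 and 1.89 (fitted 2.22 ± 0.43; 4.67-fold higher; adjusted p = 0.00571). Mup4 had signals of 402537 and 129787 in sham males, against 27986 and 162313 in sham females, and log2 ratios of 2.67 and 1.40 (fitted 2.04 ± 0.46; 4.11-fold higher; adjusted p = 0.0145). On the replicate 2 array the raw signal of Mup4 was thus lower in sham males than in sham females, and its ratio above 0 came from normalization. All 3 members were called higher, against 5% of all tested probes higher and 8.52% in either direction. The calls rest on both arrays, since 0 of the 3 remained called when either replicate was left out, and with median centring in place of loess 1 of the 3 was called (Mup1). Mup4 also lost its call with no dye term (adjusted p = 0.0516) and with the own arrays alone (adjusted p = 0.0710), and its adjusted p ran from 0.00131 to 0.241 over the 15 alternatives. Skeletal muscle markers had medians of 2.29 and 2.83 in this comparison, with 1 of 11 called higher, and their part in the Mup ratios was not tested.

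The sex ratio in sham mice can also be reached through the Hypox groups, by taking the male fall, the male over female Hypox ratio and the female fall together. Mup1 had a log2 ratio of 3.12 directly and 1.77 by this route, a gap of 1.35 ± 1.14 (SE). Mup4 had 2.04 directly and 0.83 by the route, and Mup5 had 2.22 directly and 1.34. The direct value was the larger for each probe, but the gaps were not beyond their error (adjusted p of 1.00 for each).

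Channel levels placed the sham groups highest for every probe. Mup1 averaged 14.16 ± 1.36 in Hypox males (SD, n = 10 channels, normalised log2 level) and 18.78 ± 0.46 in sham males (n = 4). It averaged 13.59 ± 0.90 in Hypox females (n = 10) and 17.10 ± 2.09 in sham females (n = 4). From the highest, the order of the Mup1 levels was sham males, sham females, then males with 2GH (15.65), GH90 (14.94), GH30 (14.45) and Hypox alone (14.16), followed by females with GH30 (13.60), Hypox alone (13.59), 2GH (13.35) and GH90 (13.29). The ranges of every pair of neighbours in this order overlapped. Mup4 and Mup5 likewise had sham males, sham females, males with 2GH and males with GH90 as the 4 highest groups, and every pair of neighbours overlapped.

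Levels of a group could differ between arrays with different partner groups. In sham females Mup1 stood at 14.75 and 16.01 opposite sham males, and at 18.33 and 19.32 opposite Hypox females. Mup4 stood at 15.51 and 16.70 opposite sham males, and at 17.93 and 18.72 opposite Hypox females. Mup5 stood at 14.89 and 15.82 opposite sham males, and at 17.68 and 18.26 opposite Hypox females. The 2 sets did not overlap for any probe, but each set held 2 channels, and the share of all probes without overlap was not counted. The arrays opposite sham males lay on slides 1 and 2 (scan day 1), and those opposite Hypox females on slides 3 and 4 (scan day 2). The partner group therefore cannot be told apart from slide and scan day here. In Hypox males, Mup1 stood at 10.86 and 13.18 opposite sham males and between 13.38 and 15.30 opposite the other groups. The other probes did not share this pattern. Mup4 stood at 13.97 and 15.76 opposite sham males and between 13.60 and 14.47 opposite the others. Mup5 stood at 11.58 and 13.55 opposite sham males and between 12.61 and 13.38 opposite the others. In Hypox females, Mup4 was higher opposite sham females (13.70 and 15.52) than opposite the others (12.78 to 13.66), while the ranges of Mup1 and Mup5 overlapped. The cause was not tested.

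**Figure D2:**
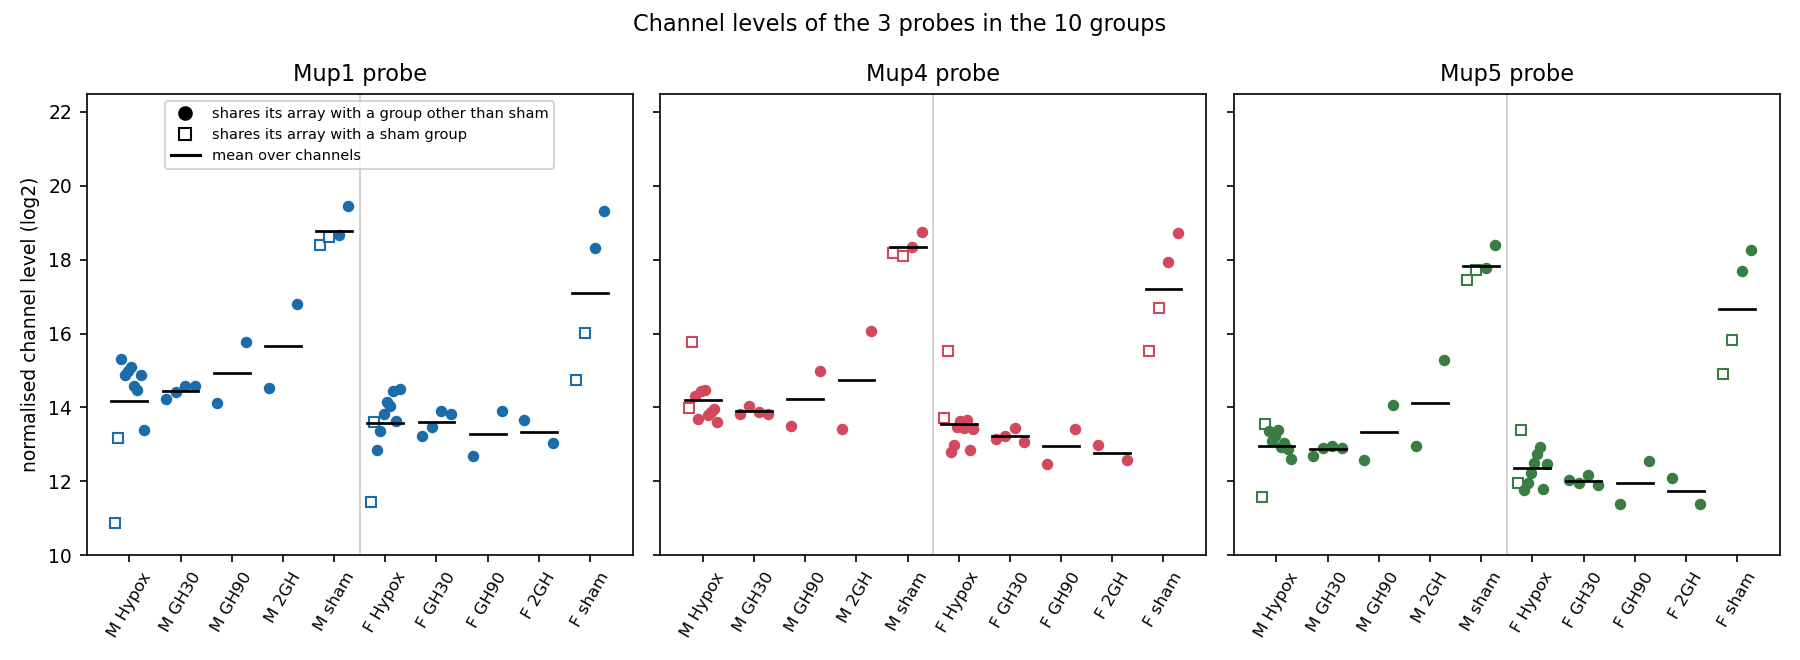
Normalised log2 level of each channel (vertical axis) for the Mup1, Mup4 and Mup5 probes in the 10 groups (horizontal axis, males left and females right of the grey line). Open squares are channels that shared their array with a sham group, filled circles the others and black bars the group mean. For Mup1, sham females lie at 14.75 and 16.01 opposite sham males and at 18.33 and 19.32 opposite Hypox females.

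Growth hormone was then given to Hypox mice, to ask which liver genes answer within minutes to hours. In males after 30 min, Mup1 had log2 ratios over Hypox males of -0.77 and -0.65 (fitted -0.71 ± 0.57; adjusted p = 0.573). Mup4 had log2 ratios of -0.61 and -0.42 and Mup5 of -0.53 and -0.47, and none was called (adjusted p of 0.621 for Mup4 and 0.609 for Mup5). After 90 min the arrays went opposite ways, with -0.48 and 1.29 for Mup1, -0.30 and 1.11 for Mup4 and -0.36 and 1.03 for Mup5 (adjusted p between 0.720 and 0.786). Of the 3 members 0 were called at either time by limma, where 2.67% and 5.07% of all probes were called after 30 and 90 min, and 0 members had an unadjusted p under 0.05. On the replicate 1 arrays skeletal muscle markers had medians of 3.11 after 30 min and 2.18 after 90 min, against -0.04 and 0.05 on the replicate 2 arrays. After 90 min the Mup probes were higher on the replicate 2 array, where the muscle median was 0.05. The part of muscle in these Mup ratios was not tested.

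After 2 injections the male arrays disagreed. Mup1 had signals of 17933 and 206385 in males with 2GH, against 57448 and 8103 in Hypox males, and log2 ratios of -0.36 and 3.41. Mup4 had signals of 9214 and 128230 in males with 2GH, against 30295 and 9674 in Hypox males, and log2 ratios of -0.54 and 2.48. Mup5 had signals of 7101 and 74599 in males with 2GH, against 14126 and 5226 in Hypox males, and log2 ratios of 0.09 and 2.68. Every probe was high on the replicate 2 array and between -0.54 and 0.09 on the replicate 1 array. The fitted ratio was 1.52 ± 0.57 for Mup1 (adjusted p = 0.0826), 0.97 ± 0.46 for Mup4 (adjusted p = 0.177) and 1.38 ± 0.43 for Mup5 (2.61-fold higher; adjusted p = 0.0383). Mup5 was therefore the 1 member called higher, against 11.9% of all tested probes higher and 20.5% in either direction. The call rests on the replicate 2 array: without it 0 members were called, and without the replicate 1 array all 3 were. On that replicate 2 array muscle markers had a median of 2.95 and pancreas markers (9 tested) of 3.38, against 0.03 and 0.30 on the replicate 1 array. In the fit 8 of 9 pancreas markers were called higher, as was 1 of 2 tested salivary and lachrymal gland markers, and their part in the Mup ratios was not tested.

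In females no GH schedule moved a Mup probe past the threshold. After 30 min the log2 ratios over Hypox females were 0.36 and 0.09 for Mup1, 0.35 and 0.24 for Mup4 and 0.26 and -0.01 for Mup5. After 90 min they were -1.15 and -0.25 for Mup1, -1.0 and -0.22 for Mup4 and -0.83 and 0.05 for Mup5. After 2 injections they were -0.37 and -1.41 for Mup1, -0.47 and -1.07 for Mup4 and -0.65 and -1.55 for Mup5. For the comparison after 2 injections the series design names Hypox males as the other group, while the labels of both arrays name Hypox females and were followed. Ratios after 2 injections lay below 0 on both arrays for each probe, with fitted values of -0.89 ± 0.57 (adjusted p = 0.408), -0.77 ± 0.46 (adjusted p = 0.367) and -1.10 ± 0.43 (adjusted p = 0.145) for Mup1, Mup4 and Mup5. By limma 0 members were called at any of these times, where 0.0154%, 3.03% and 8.7% of all probes were called after 30 min, 90 min and 2 injections, and the members with an unadjusted p under 0.05 numbered 0, 0 and 1 (Mup5). Muscle markers had medians of -3.31 and -3.01 in the comparison after 2 injections, with 9 of 11 called lower, and their part in the Mup ratios was not tested.

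The male minus female difference of the ratios after 2 injections was 2.42 ± 0.81 for Mup1 (log2 scale; adjusted p = 0.125), 1.74 ± 0.65 for Mup4 (adjusted p = 0.172) and 2.48 ± 0.61 for Mup5 (95% interval 1.16 to 3.81; adjusted p = 0.0545). None passed the threshold, while 2.11% of all probes did, and all 3 members had an unadjusted p under 0.05. With slide or scan day as a random block the Mup5 difference was called (adjusted p = 0.0439 and 0.0346), while over all 16 alternatives its adjusted p ran from 0.0290 to 0.409. The male arrays lay on slide 5 (scan day 3) and the female arrays on slides 3 and 4 (scan day 2). Sex therefore cannot be told apart from slide and scan day in this contrast, with or without a block. The contrast also takes the female arrays as set against Hypox females, as labelled. If the other group was Hypox males, as the series design has it, the contrast is not a difference of GH responses. Without the male replicate 2 array the difference was 0.86 for Mup1, 0.54 for Mup4 and 1.43 for Mup5, and without the male replicate 1 array it was 3.98, 2.94 and 3.54. In the same contrast the median difference was 4.55 for skeletal muscle markers (1 of 11 called higher) and 1.96 for pancreas markers (0 of 9 called), and their part in the Mup differences was not tested. After 30 min the differences ran from -0.94 to -0.62 and after 90 min from 0.73 to 1.11 over the 3 probes, with adjusted p between 0.643 and 0.769. Here 0 members were called by limma and 0 had an unadjusted p under 0.05, where 0.00308% and 0.00923% of all probes were called. At these times too, male and female arrays lay on different slides and were scanned on different days.

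**Figure D3:**
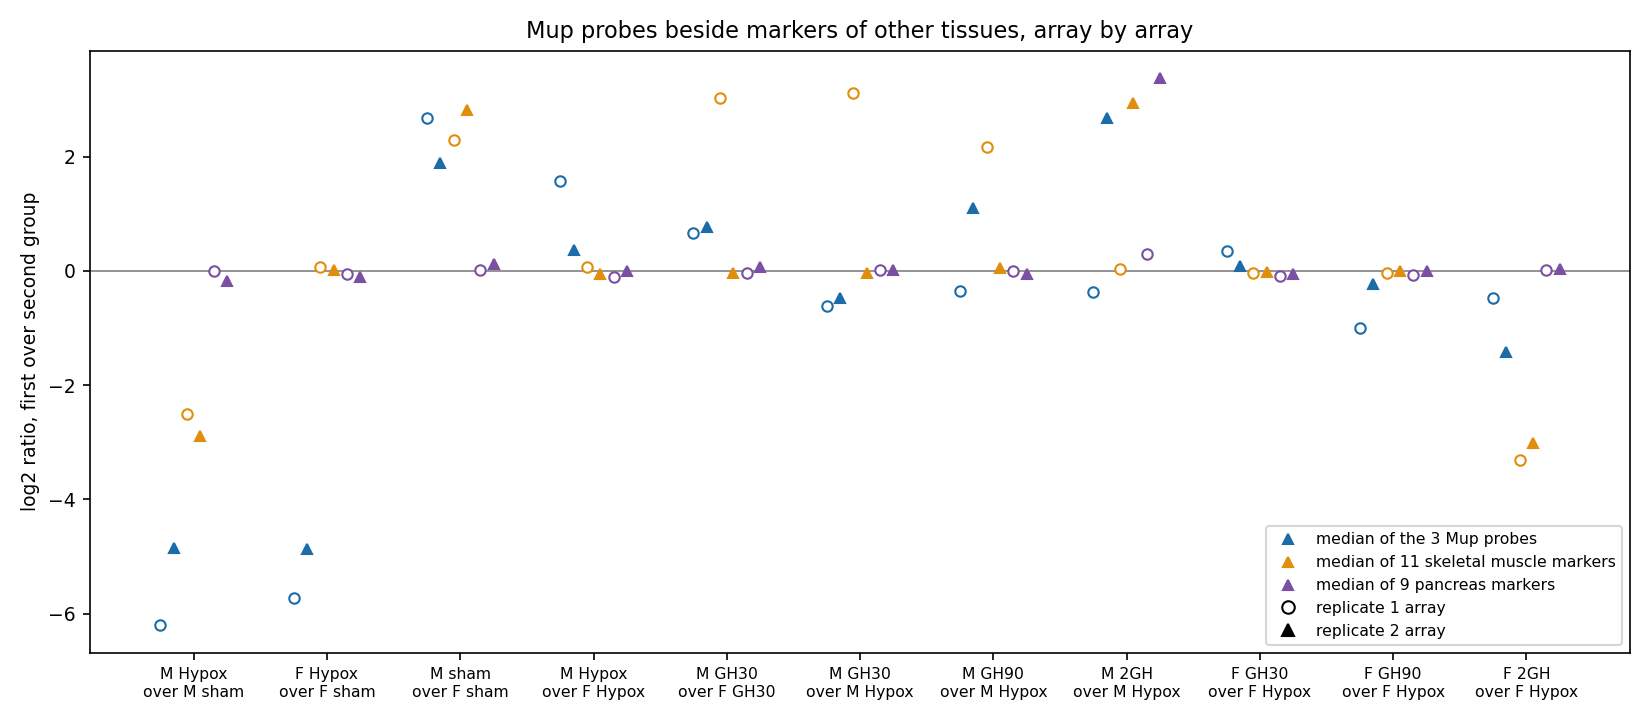
Log2 ratio of the first over the second group on each array (vertical axis) in the 11 comparisons (horizontal axis) for the median of the 3 Mup probes (blue), of 11 skeletal muscle markers (orange) and of 9 pancreas markers (purple). Open circles are replicate 1 arrays and filled triangles replicate 2 arrays. In M 2GH over M Hypox all 3 medians are high on the replicate 2 array, while in F Hypox over F sham the muscle and pancreas medians are near 0 and the Mup median is not.

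Among Hypox mice the sexes were also set against each other directly. Mup1 had log2 ratios of 1.68 and 0.37 in Hypox males over Hypox females (fitted 1.03 ± 0.57; adjusted p = 0.438). Mup4 had 1.47 and 0.26 (fitted 0.86 ± 0.46; adjusted p = 0.408), and Mup5 had 1.58 and 0.62 (fitted 1.10 ± 0.43; adjusted p = 0.228). All of these ratios were above 0, but 0 members were called by limma, against 1.56% of all probes, and 1 (Mup5) had an unadjusted p under 0.05. The sign depended on normalization on the replicate 2 array, where the raw signal of each probe was lower in Hypox males. With median centring the ratios on that array were -0.177 for Mup1, -0.182 for Mup4 and 0.252 for Mup5. In a model with 1 coefficient per group, which also draws on the indirect routes, Mup4 (1.21; adjusted p = 0.0413) and Mup5 (1.36; adjusted p = 0.0164) were called. Between GH30 males and GH30 females the ratios were 0.66 and 0.76 for Mup1, 0.42 and 0.76 for Mup4 and 0.79 and 0.98 for Mup5, again all above 0, while muscle markers had medians of 3.02 and -0.04. Of these 0 were called by limma, against 0.471% of all probes, and 0 had an unadjusted p under 0.05.

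Within the family, the 3 probes followed each other closely. Across the 22 arrays the log2 ratios of Mup1 and Mup5 had a Pearson r of 0.996, those of Mup1 and Mup4 of 0.988 and those of Mup4 and Mup5 of 0.985. Over the 16 arrays with no sham pool r was 0.975, 0.990 and 0.966 for the same pairs. These are descriptions, since arrays share pools and the probes may share targets. Mup1 and Mup4 had the same sign on all 22 arrays, and Mup5 shared the sign of each of the others on 19.

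They differed in how deep they fell. The Mup1 minus Mup4 difference of the Hypox over sham log2 ratios was -3.45 and -3.27 on the male arrays and -2.66 and -2.51 on the female arrays. The Mup1 minus Mup5 difference was -1.61 and -1.42 in males and -1.16 and -0.85 in females. Mup1 was the lowest and Mup4 the least low on all 4 arrays. This order ranks probes and not transcripts.

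Male-biased, GH-dependent liver genes were read beside the Mup probes. They were chosen for these traits with earlier results of these data known. Their counts in sham mice and after loss of the pituitary describe the list and are no independent result. In sham males over sham females 20 of 22 were called higher, with a median log2 ratio of 1.78 against 0.00 over all probes, of which 5% were called higher. Nat8f5, an acetyltransferase-like gene, had 5.28 ± 0.43 (adjusted p = 4.50e-06), and Cyp4a12a, a fatty acid hydroxylase, had 4.55 ± 0.25 (adjusted p = 1.26e-07). After loss of the pituitary all 22 were called lower in males, against 19.5% of all probes, with a median of -2.16, led by Cyp2f2 (-4.57 ± 0.88; adjusted p = 0.00133), a xenobiotic-metabolising enzyme, and Slco1a1 (-4.47 ± 0.39; adjusted p = 2.94e-06), an organic anion transporter. The Mup1 and Mup5 ratios in that comparison, -7.04 and -5.53, lay below that of every member of the list. The list split in females, with 10 called lower (against 17.2% of all probes), 3 called higher and a median of -0.46. Cyp2f2 (-4.06 ± 0.88) and Nudt7 (-3.18 ± 0.21), a peroxisomal coenzyme A hydrolase, were among those called lower, while Cyp4a12a was higher by 3.92 ± 0.25 (adjusted p = 4.74e-07). The male minus female difference of the Hypox response was called for 15 of the 22 genes, all lower, with a list median of -1.65. Of all probes 6.7% were called in either direction, and of the 3 Mup probes 0 were. The interval of the Mup1 difference (-2.50 to 1.01) contained this list median. Those of Mup4 (-1.38 to 1.44) and Mup5 (-1.56 to 1.09) lay above it. Whether the Mup probes differ from the list in this contrast was not tested. After 2 injections in males 6 of 22 were called higher (against 11.9% of all probes) and 1 lower, with Nudt7 at 1.67 ± 0.21, Keg1 at 1.57 ± 0.07 and Hsd3b5, a steroid-metabolising enzyme, at 1.24 ± 0.13.

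Some genes of the GH receptor to STAT5 pathway were called after GH in each sex, and most of the 17 tested were not. After 30 min the 1 called was Socs2 in males and in females. Socs2, a feedback inhibitor of the receptor, was higher after 30 min by 2.22 ± 0.39 in males (adjusted p = 0.0193) and by 2.97 ± 0.39 in females (adjusted p = 0.0316), where no Mup probe was called. After 90 min 4 of 17 were called higher and 0 lower in each sex, against 5.07% of all probes called in either direction in males and 3.03% in females. After 2 injections 5 of 17 were called higher and 2 lower in males, against 11.9% of all probes higher and 20.5% in either direction. In females 4 were called higher and 1 lower, against 8.7% of all probes in either direction. Cish, another feedback inhibitor, was higher by 3.11 ± 0.68 in males and by 3.98 ± 0.68 in females. Igfals, a part of the complex that carries IGF1 in plasma, was higher by 1.68 ± 0.10 and 1.92 ± 0.10. After loss of the pituitary 7 of 17 were called lower and 2 higher in males, and 6 were called lower in females, against 19.5% and 17.2% of all probes called lower in males and females. Igf1, the circulating growth factor, had log2 ratios of -2.46 ± 0.16 in males and -3.25 ± 0.16 in females. The receptor gene Ghr had log2 ratios of -0.01 ± 0.09 in males and -0.20 ± 0.09 in females, neither called.

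Transcription factors and receptors known as regulators of Mup genes were called in both directions. In Hypox over sham males 7 of 16 were called lower and 3 higher, with median -0.30, and the counts were the same in females with median -0.26. Of all probes 19.5% were called lower and 37.6% in either direction in males, and 17.2% and 31.6% in females. Onecut1, a liver-enriched factor, had -1.61 ± 0.22 in males and -1.51 ± 0.22 in females, and Cebpb, a leucine zipper factor, had -1.51 ± 0.29 and -1.32 ± 0.29. Nr1d1, a clock repressor, was higher by 1.64 ± 0.18 in males and 1.69 ± 0.18 in females. Zhx2, linked to Mup levels by genetics in mice, had 0.06 ± 0.06 in males and 0.14 ± 0.06 in females and was not called.

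Other lipocalins and small-molecule carriers of plasma were read in the same way. Of 11 tested, 3 were called lower in Hypox over sham males (median -0.33) and 4 in females (median -0.34), where 19.5% and 17.2% of all probes were called lower. The male share is near that of all probes and is no result about the carriers. Ptgds, a lipocalin-type prostaglandin synthase, had -2.64 ± 0.16 in males and -3.65 ± 0.16 in females, and Fabp1, the liver fatty acid carrier, had -1.94 ± 0.27 and -1.52 ± 0.27. In sham males over sham females 0 of the 11 were called higher and 3 lower, against 8.52% of all probes in either direction, with Ptgds at -2.13 ± 0.16 and the acute-phase carrier Orm3 at -2.63 ± 0.72. Among 20 abundant secreted liver proteins, 5 were called lower in Hypox over sham males and 4 lower and 1 higher in females. These shares lie near the 19.5% and 17.2% of all probes called lower and are no result about the set. Serpina3k, a serine protease inhibitor, had -4.42 ± 0.29 in males and -4.04 ± 0.29 in females, and after 2 injections 3.25 ± 0.29 in males and 2.27 ± 0.29 in females.

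The genes most like the Mup probes were found from the median log2 ratio of the 3 probes on each of the 22 arrays. Among 1491 genes with a symbol and a fitted ratio of at least 1 in size in some comparison, Pearson r with this profile had a median of 0.21 and 95th percentile of 0.83. The highest were Serpina3m (0.965), Serpina3c (0.957), Hsd3b5 (0.947), Nudt7 (0.940), Trp53inp2 (0.936), Ces3b (0.928), Dio1 (0.925), Hsd3b4 (0.925), Fras1 (0.920) and Cyp27a1 (0.919). Among the lowest were Idh2 (-0.939), Cdpf1 (-0.925), Cdkn1c (-0.916) and Adssl1 (-0.908). With median centring in place of loess, an alternative chosen after seeing the data, r lay between 0.843 and 0.945 for the 10 highest, but was -0.326 for Idh2, -0.490 for Cdpf1, -0.523 for Cdkn1c and -0.465 for Adssl1, so the size of the negative likeness depends on the normalization. Serpina3m had log2 ratios of -2.63 in Hypox over sham males and -2.39 in females, and 0.52 in sham males over sham females. Serpina3m and Serpina3c are serine protease inhibitors, Hsd3b5 and Hsd3b4 metabolise steroids, and Idh2 is the mitochondrial isocitrate dehydrogenase. Dio1, the deiodinase that activates thyroid hormone, had -4.63 in Hypox over sham males and -4.50 in females. Over the 16 arrays with no sham pool r was 0.82 for Serpina3m, 0.55 for Hsd3b5, 0.50 for Dio1, 0.16 for Fras1 and -0.44 for Idh2. The points share pools, and for every gene named the 6 arrays that hold a sham pool raised the size of r.

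**Figure D4:**
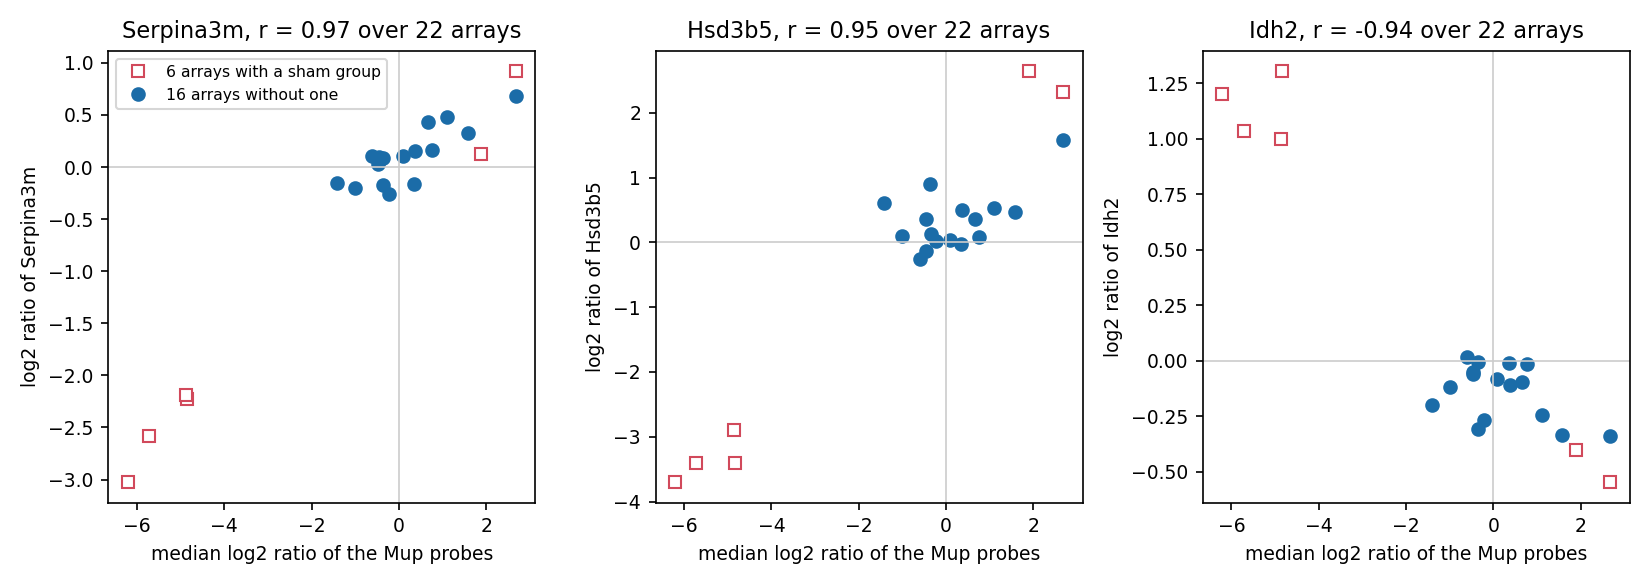
Log2 ratio of Serpina3m, Hsd3b5 and Idh2 (vertical axes) against the median log2 ratio of the 3 Mup probes (horizontal axes), with 1 point per array. Red squares are the 6 arrays with a sham group and blue circles the 16 arrays without one. The squares of the Hypox over sham arrays lie far from the circles in every panel, and r over the circles alone is 0.82, 0.55 and -0.44.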

How the data were processed

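Liver RNA pools of 10 groups were compared on 22 2-colour Agilent arrays. Per the file headers, each array's scanner file gives spot signal and background as intensity, with a log10 ratio of processed signals (Feature Extraction 9.5.1.1 on 16 arrays, 9.5.3.1 on 6). The deposited value table holds log2 ratios, a normalized ratio per the labels. Each of its 22 columns matched 1 scanner file within 0.005, 6 under the same label and 16 under the other replicate's label of the same comparison. Column medians lay between -0.02 and 0. Replicate numbers here are those of the files, and whether columns or files carry the right number is unknown.

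Ratios were turned to the first over the second group by the dyes in the labels. Intensities were corrected by normexp (offset 50) and loess in limma 3.58.1 (R 4.3.3), without control spots and outlier flags, and spots of a probe were averaged. RefSeq symbols named 22082 probes and 19092 kept the file's name. Tested probes had a channel well above background on both arrays of some comparison. One limma model had 11 comparisons and a dye term (10 residual degrees of freedom), with Benjamini-Hochberg adjustment over all tested probes. Differences between sexes are contrasts of that fit. Channel levels were scaled with Aquantile. The test was checked on simulated arrays. Members and gene lists were chosen with earlier results of these data known. Named genes follow a rule: the brightest probe of each Mup symbol, the 10 highest and 5 lowest by likeness, and up to 4 called members of each list with the largest ratio. Ghr and Zhx2 were named after their values were seen. A gene that the rule gives among the lowest is not reported here.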

Additional observations from a re-analysis of the deposited data

Results flagged for a closer look

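Stray channels were looked for in 18 combinations of group and probe with 4 to 10 channels, where chance picks out about 1 in 20. Among the 10 channels of Hypox males, the lowest Mup1 level was 10.86, opposite sham males on the replicate 1 array, with the nearest at 13.18. The lowest Mup5 level, 11.58, was on the same array, with the nearest at 12.61. The highest Mup4 level of Hypox males was 15.76, opposite sham males on the replicate 2 array, with the nearest at 14.47. Among the 10 channels of Hypox females the highest Mup4 level was 15.52, opposite sham females on the replicate 2 array, with the nearest at 13.70. All of these channels shared their array with a sham group.

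In 3 cases every male array of a GH response lay on the opposite side of 0 from every female array. After 30 min the male minus female difference was -0.94 for Mup1 (adjusted p = 0.726) and -0.81 for Mup4 (adjusted p = 0.697). After 2 injections it was 2.48 for Mup5 (adjusted p = 0.0545), with the female arrays read as labelled. None of these contrasts passed the threshold. All 3 probes were looked at in every sex difference of a response. With 2 arrays in each sex such a split often arises by chance, and its share over all probes was not counted. The 3 probes followed each other closely, so the cases are not independent.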

How the results depend on the processing

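All 3 Mup probes were called lower in Hypox over sham mice of both sexes under each of the 15 alternatives, with log2 ratios from -7.38 to -3.35 in males and from -6.43 to -3.43 in females. Counts stayed at 0 under every alternative after 30 and 90 min of GH in either sex, in GH30 males over GH30 females and in the sex differences of the Hypox, 30 min and 90 min responses. In sham males over sham females the count of 3 became 1 with median centring, 2 with no dye term and with the own arrays alone (Mup4 lost its call) and 0 whichever replicate was left out. In males after 2 injections the count of 1 became 0 with the scanner software's log ratio, median centring, no dye term, the own arrays alone and, in an alternative chosen after seeing the data, without the 6 arrays that hold no sham pool and whose muscle markers stand apart; it ran from 0 to 3 with a replicate left out. That alternative kept 4 sham arrays with muscle markers past the same size, both of sham males over sham females and both of male Hypox over sham, so it does not test those comparisons against muscle. The count became 2 in females after 2 injections with the own arrays alone, and 2 in Hypox males over Hypox females with the loop model. The sex difference after 2 injections gave 1 with the loop model, with slide and with scan day as a block, and 0 to 2 with a replicate left out (2 without male replicate 1).

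Directions turned in females after 90 min with median centring (Mup4 0.051, Mup5 0.29), for the Mup4 sex difference of the Hypox response with the loop model (-0.54) and for Mup4 in males after 2 injections without the muscle arrays (-0.080). With a replicate left out, log2 ratios ran from -0.062 to 0.87 (Mup1) and -0.055 to 0.73 (Mup5) in males after 90 min, from -0.037 to 3.09 (Mup1) and -0.23 to 2.17 (Mup4) in males after 2 injections, from -0.43 to 0.88 (Mup1), -0.22 to 0.82 (Mup4) and -0.40 to 0.65 (Mup5) in females after 30 min, from -1.98 to 0.19 (Mup1) and -1.56 to 0.024 (Mup4) in females after 2 injections, and from -0.060 to 1.24 for Mup4 in GH30 males over GH30 females. The sex difference of the Hypox response ran from -0.27 to 0.33 (Mup4) and -0.61 to 0.15 (Mup5). Quantile normalization placed sham males at 17.91 (Mup1), 17.71 (Mup4) and 17.34 (Mup5). The cause was not tested.

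A replicate block changed no count (3 in sham males over sham females). Same-numbered arrays of the 55 pairs of comparisons had correlations from -0.489 to 0.720, 26 of them above 0.1, so not every pair passed the 0.1 set for pairing. Within scan days 1 and 2, replicate 1 and 2 arrays lay on different slides (1 and 2 on scan day 1, 3 and 4 on scan day 2), so number and slide cannot be told apart there. Pools of sham males, and of GH30 and GH90 mice of each sex, also held 4 mice on replicate 1 arrays and 3 on replicate 2 arrays. Loess moved a member's ratio by up to 1.88 and changed its sign against median centring on 3 arrays for Mup1, 4 for Mup4 and 3 for Mup5. Signal over background was no limit for these probes.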
